A study of Mus musculus with 6 samples.

Results

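The genes of iron storage, uptake and export described here are Fth1, Ftl1, Trf, Tfrc, Steap3, Slc11a1, Slc11a2, Slc40a1, Ireb2 and Aco1. They were chosen by name for their known roles in iron metabolism, with earlier results of these data known. Each was found among the 24411 genes of the count table. All 10 had enough counts to be tested, as did 13919 genes in all. RNA sequencing compared 3 PBS libraries with 3 PFF libraries of mouse primary cultured cortical neurons. PFF are preformed fibrils of mouse αSyn (α-synuclein), aggregates assembled outside the cell that seed aggregation of the cell's own protein. The cells were dissociated from the cortex of embryos aged 18 days. PFF libraries are from cells that met 3.45 µM fibrils at 10 days in culture and were harvested at 18 days. PBS libraries are from cells labelled as vehicle-treated, the vehicle being phosphate-buffered saline. The labels name no strain or genotype, and nothing in them ties a library to a culture of its own. Each p-value is therefore set by how much these libraries vary among themselves, and that variation may be technical.

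Iron enters most brain cells bound to transferrin, the product of Trf, which is taken up by the transferrin receptor (Tfrc). In the endosome the metal is reduced by Steap3 and leaves through the divalent metal transporter Slc11a2, and its close relative Slc11a1 pumps metal out of the phagosomes of macrophages. Cytosolic iron is stored in ferritin, a shell of heavy (Fth1) and light (Ftl1) chains, and leaves the cell through ferroportin (Slc40a1). The iron regulatory proteins Aco1 and Ireb2 bind hairpins called iron-responsive elements (IREs) when iron is low. Binding in a 5′ untranslated region (UTR) blocks translation, and binding in a 3′ UTR protects the transcript from decay. In the brain, microglia and oligodendrocytes hold much of the stored iron, and oligodendrocytes and the choroid plexus make transferrin.

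The IREs are shown because they tie the storage, export and uptake genes to one control. The GENCODE vM21 transcripts (GRCm38) of 4 of the 10 genes held a hairpin that met a strict search: the loop CAGTGN between stems of 5 bases that pair at all 5 positions, with a C just before the first stem, on the transcribed strand. Such a match was found in the 5′ UTR of 0.142% of 21901 protein-coding genes and in the 3′ UTR of 0.589%. Fth1, Ftl1 and Slc40a1 carried 1 match each in the 5′ UTR, and Tfrc carried 4 in the 3′ UTR. The sites of 27 bases are printed 5′ to 3′ with the loop in capitals, followed by the first of the 4 of Tfrc.
Fth1, chr19:9982733-9982759, plus strand: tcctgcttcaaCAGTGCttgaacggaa
Ftl1, chr7:45459780-45459806, minus strand: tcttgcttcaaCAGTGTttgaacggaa
Slc40a1, chr1:45925466-45925492, minus strand: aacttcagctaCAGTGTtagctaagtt
Tfrc, chr16:32631220-32631246, plus strand: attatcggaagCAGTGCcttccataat
The sites of the ferritin chains differed at 2 of 27 bases, and those of Fth1 and Slc40a1 at 14. Counts per gene do not show which transcript form, with or without such a site, was present, and translation was not measured.

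Library totals ranged from 9224974 to 10742383 estimated counts. The precursor of ribosomal RNA (Rn45s) took from 3.06% to 5.80% of them. Replicate 3 of both groups stood apart from the others on the second principal component of all genes, with scores of −14.5 for PBS 3 and −18.0 for PFF 3. The component held 18.3% of the variance, and the labels name no batch, so results that rest on replicate 3 are also given without it.

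Of the 10 genes, Slc11a1, Trf and Slc40a1 rose after PFF and none fell, at an adjusted p under 0.05 in edgeR's quasi-likelihood test with Benjamini-Hochberg adjustment over all genes. Among all genes tested 6.58% passed, 3.98% as higher and 2.60% as lower. DESeq2 and limma-voom gave the same count. No gene of the 10 was lower at an unadjusted p under 0.05, where 1462 of the 13919 genes tested were lower. The median log2 fold change (PFF minus PBS) was 0.12 over the 10 genes and −0.00 over all genes tested. Levels are given as normalised counts per 1000000 (CPM), and each group holds 3 libraries. The groups did not overlap for the 3 genes that rose and overlapped for the other 7, as the plot of the genes by library shows. Over all genes tested 25.0% did not overlap, 13.4% with PFF above and 11.6% with PFF below. With replicates 1 and 2 only, 2 of the 10 rose (Slc11a1 and Slc40a1) and Fth1 fell, where 8.78% of all genes rose and 8.38% fell. In bulk RNA, a different number of cells of a type and a different amount of RNA per cell cannot be told apart.

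**Figure D1:**
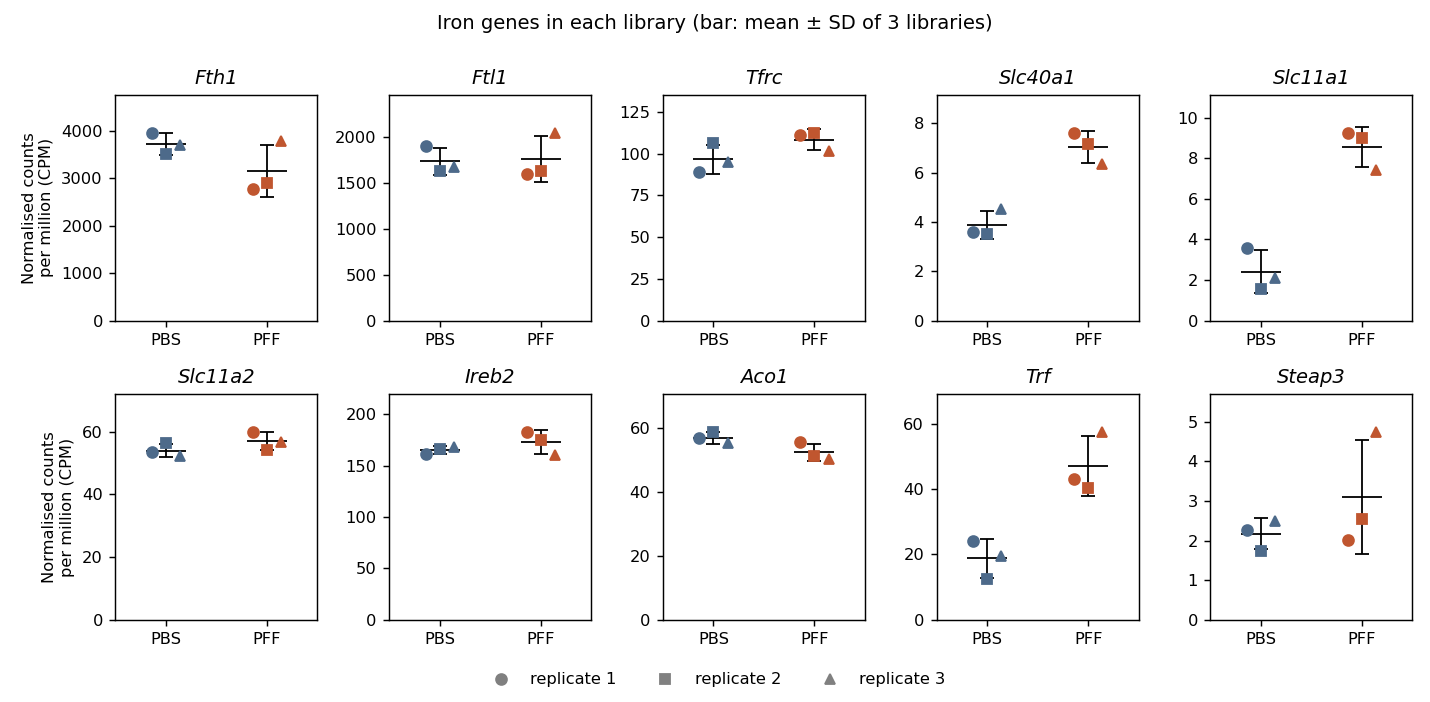
Normalised counts (CPM, vertical axes from 0) of the 10 genes in each of 6 libraries; symbols mark the replicate number, and the black bar with whiskers is the mean ± SD of 3 libraries. The PFF points of Slc40a1, Slc11a1 and Trf lie above all PBS points, and PFF replicate 3 is the highest PFF point of Fth1, Ftl1, Trf and Steap3.

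Ferritin transcripts were by far the most abundant of the set. Per kilobase of the principal transcript, Fth1 stood at 2487 ± 153 CPM in PBS and Ftl1 at 1786 ± 151 (SD, n = 3). The value of Fth1 depends on the transcript length used, which was 1494 bases here, and it is 4000.2 with the shorter principal transcript of 929 bases. In PFF the ferritin chains stood at 2110 ± 368 and 1810 ± 259 CPM per kilobase. With the shorter transcript Fth1 is at 3393.5 in PFF. The SD is between libraries and does not measure the gap between chains within a library. Each PFF library held 1.74 to 1.85 Fth1 counts per Ftl1 count, before any scaling by length. On the same scale the order in PBS went on with Ireb2 (28.6 ± 0.642), Tfrc (19.8 ± 1.76), Slc11a2 (17.8 ± 0.692), Aco1 (14.9 ± 0.470) and Trf (7.30 ± 2.30). Slc40a1 (1.15 ± 0.170) and Slc11a1 (1.04 ± 0.450) did not differ beyond their spread, and Steap3 (0.422 ± 0.0750) was the lowest. In PFF Trf stood at 18.3 ± 3.57, within its spread of Slc11a2 (18.8 ± 0.961), and Slc11a1 (3.70 ± 0.431) stood above Slc40a1 (2.09 ± 0.193).

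Fth1, on chromosome 19 from 9980598 to 9985098, encodes the chain that oxidises iron for storage. Its levels were 3956, 3501 and 3692 CPM in PBS and 2771, 2903 and 3783 CPM in PFF. PFF 1 and PFF 2 lay below every PBS library, and PFF 3 lay within the PBS range. The log2 fold change was −0.24 ± 0.12 (SE; 95% interval −0.48 to 0.01; adjusted p = 0.254). Without PFF 3, Fth1 fell by 0.39 on the log2 scale (adjusted p = 0.00834), and with replicates 1 and 2 only it also fell by 0.39 (adjusted p = 0.00241). The call on Fth1 thus turned on 1 library.

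Ftl1, on chromosome 7 from 45457944 to 45459884, encodes the light chain, which helps the iron core to form. It gave 1896, 1625 and 1665 CPM in PBS and 1593, 1621 and 2042 CPM in PFF. The highest and the lowest value both belonged to PFF libraries, and the log2 fold change was 0.02 ± 0.11 (95% interval −0.21 to 0.25). Its direction turned when libraries were left out, to −0.10 without PFF 3, −0.027 without PBS 2, −0.0069 without PBS 3 and −0.12 with replicates 1 and 2 only. Counts of Ftl1 are uncertain, because 5 other annotated genes match its transcript at 95% identity or more over at least 200 bases. None of those 5 is in the count table by name, and how their reads were handled is not known. In addition, 26.5% of the exonic bases of Ftl1 overlap Gm10252 on the opposite strand.

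The ratio of the chains separated the groups. There were 2.09, 2.15 and 2.22 Fth1 counts per Ftl1 count in PBS, and 1.74, 1.79 and 1.85 in PFF. All PFF libraries, PFF 3 included, lay below all PBS libraries. The mean log2 difference was −0.26, from −0.29 to −0.24 when each library was left out in turn. A two-sided exact permutation test gave p = 0.10, the smallest that 3 libraries against 3 allow, and 0.233 after adjustment over the 7 ratios examined. These ratios were chosen after the values of the genes had been seen, and they do not depend on the scaling between libraries. The doubt about Ftl1 counts applies to this ratio too.

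**Figure D2:**
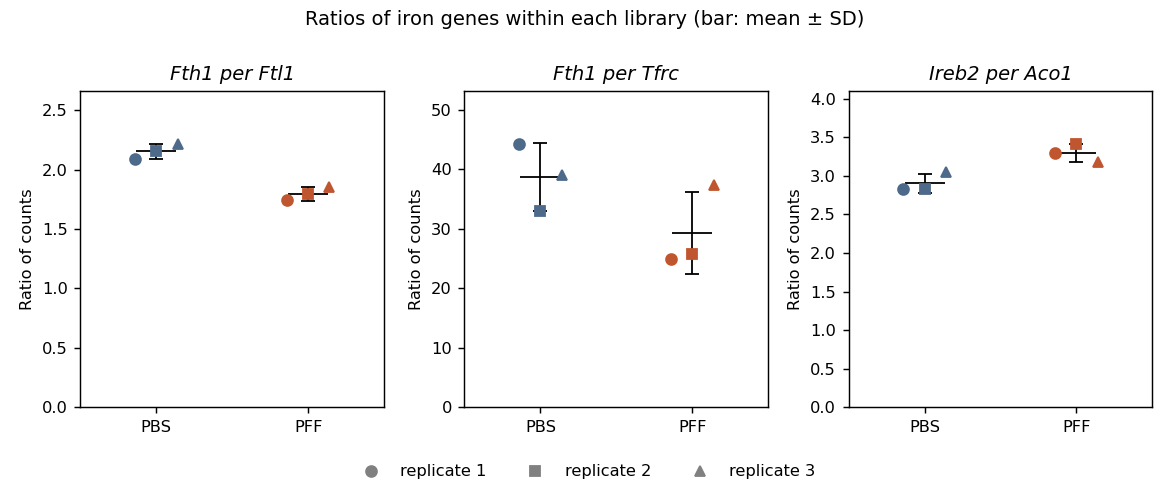
Ratio of the counts of pairs of genes within each library (vertical axes from 0, no unit); symbols mark the replicate number, and the black bar with whiskers is the mean ± SD of 3 libraries. The Fth1 per Ftl1 ratio is 2.09 to 2.22 in PBS and 1.74 to 1.85 in PFF, Ireb2 per Aco1 is higher in every PFF library, and Fth1 per Tfrc overlaps.

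Among the uptake genes, transferrin changed and its receptor did not pass the test. Trf, on chromosome 9 from 103204001 to 103230444, was at 24.3, 12.5 and 19.5 CPM in PBS and 43.2, 40.4 and 57.5 CPM in PFF. Every PFF library exceeded the highest PBS library, and PFF 3 was the highest. It rose by 1.33 ± 0.20 on the log2 scale (adjusted p = 0.00283), which is 2.52-fold. With each library left out in turn the rise was 1.10 to 1.55 (adjusted p up to 0.0463), whereas with replicates 1 and 2 only it was 1.21 and did not pass (adjusted p = 0.147). It also did not pass when no low-count filter was used (1.33, adjusted p = 0.0619). Of its exonic bases, 63.5% lie within the overlapping gene model Gm20425 on the same strand. No gene of that name is in the count table, and how reads of the shared bases were handled is not known.

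Tfrc, on chromosome 16 from 32608920 to 32632794, gave 89.2, 106 and 94.7 CPM in PBS and 111, 112 and 101 CPM in PFF. PFF 3 lay inside the PBS range, below PBS 2. The log2 fold change was 0.16 ± 0.08 (95% interval −0.01 to 0.34; adjusted p = 0.277). Fth1 counts per Tfrc count were 44.3, 33.0 and 39.0 in PBS and 24.9, 25.8 and 37.3 in PFF. These ratios overlapped (exact permutation p = 0.20, two-sided).

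Steap3, the endosomal ferrireductase on chromosome 1 from 120190757 to 120272705, was scarce, with 21, 18 and 26 counts in PBS and 21, 26 and 48 in PFF. PFF 3 alone stood apart, at 4.75 CPM, while the other 5 libraries lay between 1.75 and 2.55 CPM. Its log2 fold change of 0.51 ± 0.32 (adjusted p = 0.379) shrank to 0.07 without PFF 3.

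Slc11a2, on chromosome 15 from 100387898 to 100425072, is the transporter that moves iron out of the endosome. It stood at 53.4, 56.3 and 52.3 CPM in PBS and at 60.0, 54.1 and 56.8 CPM in PFF. PFF 2 fell between the PBS values, and the log2 fold change was 0.08 ± 0.08 (95% interval −0.09 to 0.25; adjusted p = 0.626). The strict search found no match in the UTRs of Slc11a2, and it can miss IREs that depart from the pattern. Forms of this transcript with and without an IRE were not separated.

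Slc11a1, the phagosomal relative on chromosome 1 from 74375195 to 74386062, had the largest change of the set. It was read 33, 16 and 22 times in PBS and 96, 92 and 75 times in PFF, or 3.57, 1.55 and 2.12 CPM against 9.25, 9.01 and 7.41 CPM. The lowest PFF library was above the highest PBS library. It rose by 1.84 ± 0.24 on the log2 scale (95% interval 1.33 to 2.35; adjusted p = 0.000312), which is 3.58-fold. Of the 13919 genes tested, 65 had a larger log2 fold change. With 1 library left out in turn the rise ranged from 1.60 to 2.21, and it was 1.86 with replicates 1 and 2 only (adjusted p = 2.39e-05).

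Slc40a1, the only known exporter of iron from the cell, lies on chromosome 1 from 45908068 to 45926523. Its counts were 33, 36 and 47 in PBS and 79, 73 and 64 in PFF, which correspond to 3.57, 3.50 and 4.52 CPM and to 7.61, 7.15 and 6.33 CPM. The groups did not overlap, and PFF 3 was the lowest PFF library. It rose by 0.86 ± 0.18 on the log2 scale (95% interval 0.48 to 1.24; adjusted p = 0.00962), or 1.81-fold. The rise was 1.07 with replicates 1 and 2 only (adjusted p = 0.00122), and it did not pass without PBS 1 (0.81, adjusted p = 0.0539).

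The iron regulatory proteins were close to level. Ireb2, on chromosome 9 from 54863789 to 54912530, is degraded when iron is high. It was at 161, 166 and 168 CPM in PBS and 183, 175 and 160 CPM in PFF, a log2 fold change of 0.07 ± 0.07 (95% interval −0.10 to 0.23; adjusted p = 0.671). Aco1, on chromosome 4 from 40143081 to 40198338, is an aconitase when it holds an iron-sulfur cluster and binds IREs when it does not. It was at 56.9, 58.8 and 55.2 CPM in PBS and 55.5, 51.3 and 50.4 CPM in PFF (−0.12 ± 0.08; 95% interval −0.29 to 0.05; adjusted p = 0.409). Neither gene separated the groups on its own. Ireb2 counts per Aco1 count were 2.83, 2.82 and 3.05 in PBS and 3.30, 3.42 and 3.17 in PFF, higher in each PFF library than in any PBS library (exact permutation p = 0.10, two-sided, the smallest possible; 0.233 after adjustment).

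**Figure D3:**
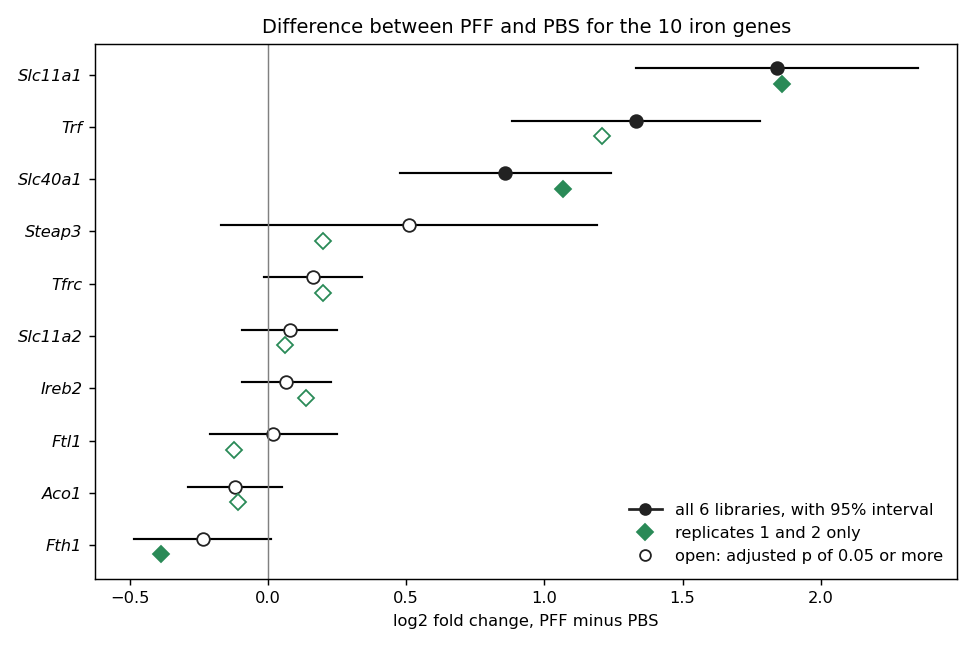
The log2 fold change (PFF minus PBS, horizontal axis) of each of the 10 genes from all 6 libraries, as circles with 95% intervals, and from replicates 1 and 2 only, as diamonds; filled symbols have an adjusted p under 0.05. Slc11a1 and Slc40a1 are filled in both, Trf only with all libraries and Fth1 only with replicates 1 and 2.

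Markers of the cells known to hold or transport iron moved in the same libraries. Of the 18 tested microglia and macrophage markers 17 rose and none fell, where 3.98% of all genes tested rose and 2.60% fell. Their median log2 fold change was 1.35, and the list summed to 232 to 360 CPM in PBS and 658 to 796 CPM in PFF. C1qa, a complement gene of these cells, rose by 1.56 ± 0.15. P2ry12, on the same list, did not pass (0.26 ± 0.36, adjusted p = 0.731). Tmem119 and Siglech had too few counts to be tested, and no gene on that list was at 0 in all libraries. Among mature oligodendrocyte markers 5 of 8 rose and none passed as lower (median 1.24), with Mbp (1.29 ± 0.15) and Mag (1.41 ± 0.14) among those that rose. The list summed to 402 to 501 CPM in PBS and 651 to 982 in PFF. Cnp, on the same list, went the other way without passing (−0.26 ± 0.10, adjusted p = 0.163). Cldn11 (0.33 ± 0.19) and Ermn (1.18 ± 0.34) did not pass either. All 8 markers of oligodendrocyte progenitors and committed precursors fell (median −0.81; 718 to 880 CPM in PBS and 509 to 547 in PFF). Astrocyte markers gave 3 lower (Aldoc, Slc1a2 and Aldh1l1) and 0 higher of 12, with sums of 4171 to 5406 CPM in PBS and 4060 to 5112 in PFF. Among neuron markers Syt1 alone rose of 12 and none fell, with sums of 5834 to 6157 CPM in PBS and 6089 to 6696 in PFF, so RNA of neurons and of glia was present in every library.

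Markers of choroid plexus, blood vessels and red blood cells were near the detection limit. Those of choroid plexus summed to 4.47 to 5.63 CPM in PBS and 3.86 to 5.78 in PFF, and 1 of the 7, the transthyretin gene Ttr, had enough counts to be tested (−0.24 ± 0.31). Endothelial markers summed to 3.27 to 3.57 CPM in PBS and 3.76 to 5.14 in PFF, with Cldn5 at 0. Erythroid markers summed to at most 1.19 CPM in any library, with the globin genes Hba-a2 and Hbb-bs at 0.

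The genes that rose were also set against these marker sums, in 4 ratios with an adjusted p from 0.233 to 0.70; 3 libraries against 3 cannot pass this permutation test. Slc11a1 amounted to 9.91, 6.69 and 7.31 CPM per 1000 CPM of microglia and macrophage markers in PBS and to 14.1, 13.6 and 9.31 in PFF. PFF 3 fell below PBS 1 on this measure, and the mean log2 difference was 0.62 (exact permutation p = 0.20, two-sided). Slc40a1 on the same measure was 9.91, 15.1 and 15.6 in PBS and 11.6, 10.8 and 7.94 in PFF, a mean log2 difference of −0.41 (exact permutation p = 0.30). That difference was −0.62 without PBS 1, −0.25 without PFF 3 and −0.13 with replicates 1 and 2 only. On this measure the groups overlapped and the PFF mean was the lower. Trf amounted to 48.4, 26.8 and 48.6 CPM per 1000 CPM of mature oligodendrocyte markers in PBS and to 49.0, 62.1 and 58.6 in PFF. The groups did not overlap (exact permutation p = 0.10, the smallest possible), but the mean log2 difference of 0.50 was 0.22 without PBS 2. Relative to the microglia and macrophage markers Trf was 67.3, 54.0 and 67.5 in PBS and 65.7, 61.0 and 72.2 in PFF, a mean log2 difference of 0.08 (exact permutation p = 0.70). The part of these cells in the changes of Slc11a1, Slc40a1 and Trf was not tested.

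**Figure D4:**
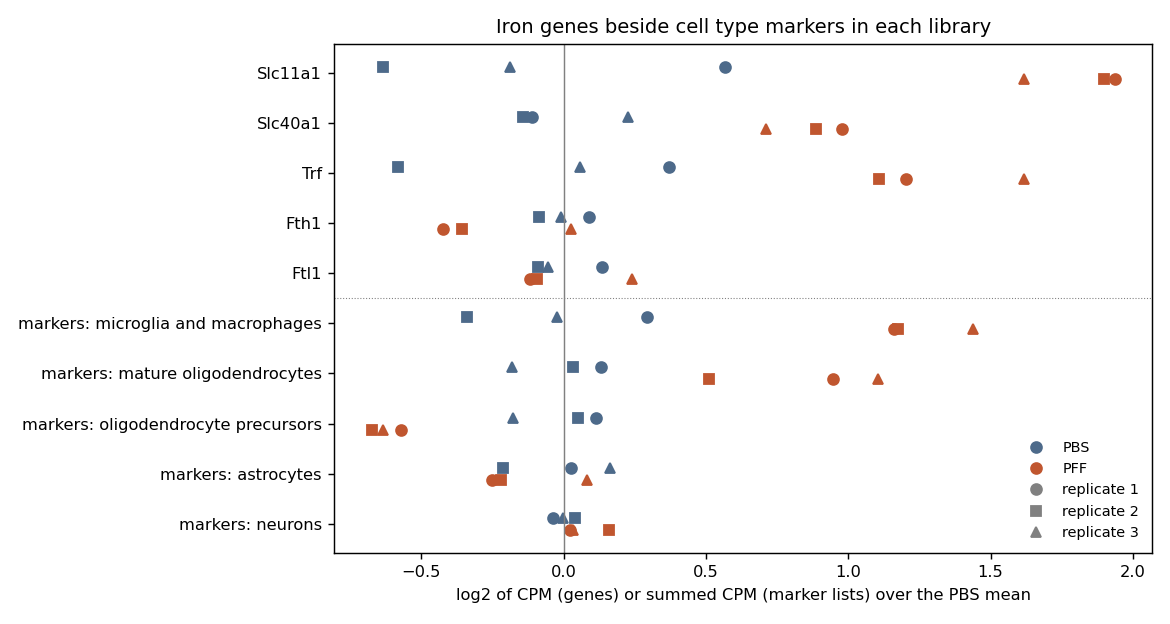
The log2 of each library's level over the PBS mean (horizontal axis), for CPM of 5 iron genes above the dotted line and summed CPM of 5 marker lists below it; blue is PBS, orange is PFF and symbols mark the replicate number. Slc11a1, Slc40a1, Trf and the microglia and mature oligodendrocyte markers lie to the right in all PFF libraries, oligodendrocyte precursor markers lie to the left, and Fth1 in PFF 3 lies close to the PBS mean.

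Genes whose levels ran most alike over the 6 libraries were found by the Pearson correlation of log2 CPM with 11523 genes of at least 5 CPM, as a description, since with 6 libraries in 2 groups many genes reach high values. For Slc11a1 these were Pacsin2 (0.998), Fyb (0.996) and Efhd2 (0.995), and 145 genes exceeded 0.95. For Trf they were the microglial chemokine receptor gene Cx3cr1 (0.997), Synj2bp (0.995) and the complement gene C4b (0.994). For Slc40a1 they were Zfp622 (0.995), Phtf2 (0.994) and Bcar3 (0.992).

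Beyond the 10 genes, 54 of 66 listed genes of iron and haem handling were tested, of which 3 rose and 2 fell (median log2 fold change −0.02). These counts are near the shares over all genes tested, of which 3.98% rose and 2.60% fell. Steap4, a ferrireductase, rose by 2.60 ± 0.46 (adjusted p = 0.00322) from a low level. It was at 0.433, 0.194 and 0.289 CPM in PBS and 2.22, 1.17 and 2.27 CPM in PFF. It was the only 1 of 5 tested ferrireductases and ferroxidases to pass. Lcn2, which encodes lipocalin-2, a carrier of iron-binding siderophores, rose from 10.3, 4.47 and 5.87 CPM to 15.9, 13.5 and 22.4 CPM (1.34 ± 0.27, adjusted p = 0.0120). It was the only 1 of 3 tested genes of other import routes to pass, and did not pass with replicates 1 and 2 only (1.02, adjusted p = 0.0739), without PBS 3 (1.25, adjusted p = 0.100) or without a low-count filter (1.34, adjusted p = 0.0914).

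In the list of iron-linked lipid peroxidation 1 of 9 genes rose and 2 fell, where 3.98% of all genes tested rose and 2.60% fell. Slc7a11, which imports cystine for glutathione, fell by 0.96 ± 0.10 (adjusted p = 7.53e-05), from 52.4, 58.8 and 68.6 CPM to 30.7, 30.7 and 31.4 CPM. Gpx4, the glutathione peroxidase that reduces lipid peroxides, fell by 0.37 ± 0.10 (adjusted p = 0.0469), from 473, 424 and 425 CPM to 304, 320 and 402 CPM. PFF 3 was again nearest to PBS. Leaving out any PBS library, PFF 1 or PFF 2 ended the call of Gpx4 (adjusted p up to 0.236), and leaving out PFF 3 did not (−0.50, adjusted p = 0.000639). With all libraries, Gpx4 also did not pass in edgeR with scaling by library size only (adjusted p = 0.0528). The same held for a stricter low-count filter (0.0585) and for edgeR without robust estimation (0.0502). Ptgs2, a cyclooxygenase gene, rose by 0.72 ± 0.18 (adjusted p = 0.0287), but its call was lost when PBS 1, PBS 2 or PFF 2 was left out (adjusted p up to 0.169).

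No gene passed among 5 of cytosolic iron handling and ferritin turnover, 4 of systemic iron sensing, 16 of haem metabolism and 12 of mitochondrial iron and iron-sulfur clusters. DESeq2 and limma-voom called none of them either. At an unadjusted p under 0.05 there were 0, 0, 4 and 3 genes in these lists. Of all 13919 genes tested, 2944 had an unadjusted p under 0.05, so the counts of 4 and 3 are near the share over all genes. The smallest unadjusted p among the handling genes belonged to the iron chaperone Pcbp1 (0.18 ± 0.09) and the lysosomal channel Mcoln1 (0.15 ± 0.08), and among the sensing genes to Tfr2 (0.37 ± 0.31) and Hfe (0.24 ± 0.20). In haem metabolism they were the haem transporter Slc48a1 (−0.24 ± 0.08, adjusted p = 0.0796) and the synthesis enzyme Ppox (−0.41 ± 0.14, adjusted p = 0.0981). Among mitochondrial genes they were the cluster assembly factors Isca2 (−0.34 ± 0.10, adjusted p = 0.0538) and Lyrm4 (−0.31 ± 0.11, adjusted p = 0.115).

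**Figure D5:**
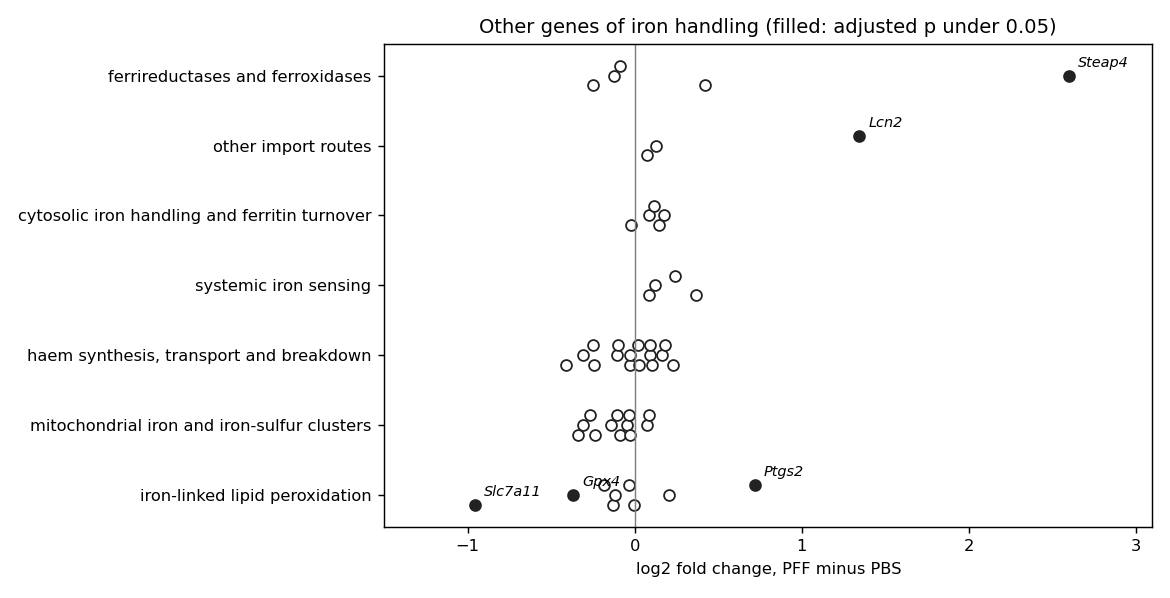
The log2 fold change (PFF minus PBS, horizontal axis) of each tested gene in 7 other lists of iron handling, from all 6 libraries; filled points have an adjusted p under 0.05. Steap4, Lcn2 and Ptgs2 lie to the right, and Slc7a11 and Gpx4 to the left. Of the 12 genes of mitochondrial iron and iron-sulfur clusters 10 are below 0 and none is filled. Over all 13919 genes tested, 6947 were above 0.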

How the data were processed

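The authors deposited a table of estimated counts per gene, in which 8.69% of values are fractional and library totals differ, so no scaling had been applied. The submitters' processing notes name Trim Galore 0.6.6, STAR 2.7.9a, DESeq2 1.38.3 and the mm10 genome, with no roles. Libraries were made with a kit that keeps strand, per the labels' protocols. How reads were counted (tool, strand setting, annotation) is not given in the sources used here, so reads of overlapping or near-identical genes are uncertain.

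Columns were matched to samples by name, and counts were rounded. In R 4.3.3 with edgeR 4.0.16, 10492 genes were removed by filterByExpr, and the other 13919 were TMM-normalised and tested by the two-sided quasi-likelihood F-test (robust), with group as the only term. The 95% intervals use the test's standard error and degrees of freedom, and cover no other error. Log2 CPM used a prior count of 2. Alternatives included DESeq2 1.42.0 and limma-voom (limma 3.58.1). Only the main edgeR fit was tried on simulated counts. The other steps were not. Symbols of 3 listed genes were matched through RefSeq synonyms. Coordinates, lengths, overlaps and IREs came from GENCODE vM21 (GRCm38, the assembly of mm10), with the longest APPRIS principal transcript for lengths, and ferritin protein sequences were not analysed here.

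The 10 genes and all lists were chosen with earlier results of these data known. Named were the 10 genes, the genes of each other iron list that passed or, where none did, the 2 with the smallest p, and the 3 genes most like each of the 10 that passed. The genes named in the closing section for replicates 1 and 2 were chosen after their values were seen. One gene of the mitochondrial list is counted but not reported here by name.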

Additional observations from a re-analysis of the deposited data

How the results depend on the processing

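Across 19 alternatives Slc11a1 kept its direction and its call, and 2 or 3 of the 10 genes were called higher. Calls were lost for Trf without a low-count filter (1.33) and with replicates 1 and 2 only (1.21), and for Slc40a1 without PBS 1 (0.81), and the cause was not tested. Leaving out 1 library gave log2 fold changes of 0.78 to 0.99 for Slc40a1, −0.39 to −0.15 for Fth1 and −0.10 to 0.089 for Ftl1, and −0.027 to 0.14 for Trf relative to microglia and macrophage markers. It gave 0 to 1 of the 10 genes lower, 2 to 4 genes of the other iron lists higher and 1 to 9 lower. Of all genes, 312 to 871 were then called higher and 100 to 987 lower. The most were called without PFF 3 and the fewest without PFF 2, and the counts lower were 157, 234 and 197 without PBS 1, PBS 2 and PFF 1. Without PFF 3 the 10 genes had 1 lower (Fth1) and the other iron lists 9 lower. With replicates 1 and 2 only, an alternative chosen after seeing the data like the batch term, Fth1 was called lower (−0.39), Ftl1 was at −0.12, 1 of the 10 genes and 9 of the other iron lists were lower, and 1225 of all genes rose and 1169 fell. The log2 difference of Ireb2 per Aco1 was then 0.25, against 0.18. With replicate 3 as a batch term the counts were 8 lower in the other iron lists and 1029 and 976 of all genes. At an adjusted p under 0.01 they were 1 higher and 1 lower in the other iron lists, and 291 and 123 of all genes. The other iron lists had 4 genes lower without a low-count filter, and 1 with the stricter filter, with scaling by library size only or without robust estimation.

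With the replicate number as a block, 3 of the 10 genes rose and none fell, 7 genes of the other iron lists were lower, and 1043 of all genes rose and 954 fell. Fth1 was at −0.25 (adjusted p = 0.0787). The labels do not say that a number marks a shared culture. Deviations from the group means correlated at 0.0919, 0.109 and 0.202 for numbers 1, 2 and 3. Between unlike numbers the values were 0.128 (PBS 2 with PFF 1), −0.00869, −0.0259, −0.0853, −0.203 and −0.207. The main fit did not treat the samples as paired because the labels give no pairing. Whether equal numbers share a culture was not tested. With 18 to 48 counts per library the 95% interval of Steap3 ran from −0.17 to 1.19, and with 1487 to 1899 counts that of Ireb2 ran from −0.10 to 0.23.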

Other observations

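With replicates 1 and 2 only, genes of haem and iron-sulfur cluster metabolism were called lower that did not pass with all libraries. In the mitochondrial list 4 of 12 fell and none rose, among them Isca2 (−0.46 ± 0.10), Lyrm4 (−0.44 ± 0.11) and the glutaredoxin gene Glrx5 (−0.30 ± 0.09). In the haem list 3 of 16 fell, namely Ppox (−0.62 ± 0.13), Uros (−0.33 ± 0.10) and Slc48a1 (−0.31 ± 0.07). In those libraries 8.38% of all genes tested fell and 8.78% rose. Gpx4 fell by 0.52 ± 0.07 there, against 0.37 ± 0.10 with all libraries.

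Of the 31 genes with an IRE match in the 5′ UTR, 22 were tested, and Slc40a1 was the only 1 that rose, while none fell (median log2 fold change 0.04). Of the 129 with a match in the 3′ UTR, 108 were tested, of which 6 rose and 2 fell (median 0.03). Both sets of counts are near the shares over all genes tested, of which 3.98% rose and 2.60% fell. Those that rose were Cxcl16 (1.60 ± 0.22), S1pr2, Lrrc55, Slc6a6, Kcnf1 and A830018L16Rik, and those that fell were Bola3 (−0.46 ± 0.11), a factor of iron-sulfur cluster transfer, and Gng3 (−0.27 ± 0.07). They are named after their values were seen, and a match of letters does not show that an iron regulatory protein binds there.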
